A study of Mus with 6 samples.

Results

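The genes described here are 10 components of the protein-folding machinery of the endoplasmic reticulum (ER) and of the unfolded protein response (UPR), named by the rule that defines the set and found by Ensembl ID among 35304 IDs in a table of read counts. They are Hspa5, Hsp90b1, Calr, Canx, Pdia4, Pdia6, Xbp1, Dnajb9, Herpud1 and Hyou1, and all 10 passed the filter on low counts. RNA sequencing was carried out on 6 samples of 4T1, a line derived from a mammary carcinoma of a BALB/c mouse. In 3 samples the cells had been exposed to 10 µg/mL isopimaric acid (IPA), a plant diterpene acid, for 24 h; the other 3 samples are labelled as having had no treatment, and the labels mention no vehicle. All 6 samples share the same line and carry no stated genetic change, and it is not stated whether replicates were separate cultures, so the p-values reflect only how these samples vary, and part of that variation may be technical.

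Secreted and membrane proteins fold in the ER, where the Hsp70-type chaperone BiP (Hspa5), the Hsp90-type chaperone GRP94 (Hsp90b1), the lectin chaperones calreticulin and calnexin, and the protein disulfide isomerases assist them. Several of these proteins bind calcium, and calreticulin is a major calcium-storing protein of the ER lumen. When unfolded proteins accumulate, the sensors IRE1, PERK and ATF6 start the UPR. IRE1 splices the Xbp1 mRNA, and XBP1 and ATF6 then raise transcription of chaperones, co-chaperones and genes of ER-associated degradation. The study asked how IPA, described in its title as an ion channel regulator, acts on calcium and oxidative phosphorylation pathways in these cells.

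Total counts ranged from 3410411, in IPA replicate 1, to 58924711, in untreated replicate 2. Untreated replicate 2 stood apart: its correlations with the other libraries, across IDs in log2 CPM (read counts scaled to the library total), ran from 0.779 to 0.811, against 0.922 to 0.987 among the other 5 libraries. Genes are not independent replicates, so these correlations are descriptions of the libraries. Fitted changes are therefore given with all 6 libraries and without untreated replicate 2, and, where it matters, also without the shallow IPA replicate 1. The last of these fits keeps only 2 libraries in each group. Untreated replicate 2 was set aside with earlier results of these data known. Levels are CPM of the library total, while fold changes are fitted by edgeR with TMM scaling, which gave untreated replicate 2 a factor of 0.754 and the other libraries factors between 1.02 and 1.11. Scaling by library totals moved the median over the tested IDs from a log2 fold change of -0.08 to one of 0.13, and each member's fold change moved up with it. The markers that would test the identity of the cells were not analysed here, since the IDs are not paired with gene names beyond the 10 members.

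Over all 6 libraries, edgeR called 0 of 10 members higher and 0 of 10 lower at an adjusted p under 0.05, as it called 0% of the 24935 tested IDs higher and 0% lower. At an unadjusted p under 0.05, 2 members, Hyou1 and Calr, were higher and 0 were lower, against 1.88% and 4.38% of all tested IDs. DESeq2, run on the same libraries, also called 0 members, while it called 22 of 34648 tested IDs higher and 63 lower. It gave the same 2 members at an unadjusted p under 0.05, against 613 of those IDs higher and 1839 lower. The median log2 fold change of the 10 members was 0.0033, against -0.08 for the tested IDs as a whole, with 5 members above 0 and 5 below, beside 45.5% of all tested IDs above 0. With library totals 7 members were above and 3 below, as Canx and Pdia6 changed sign, beside 57.5% of all tested IDs above 0. In bulk RNA of this kind, less RNA per cell and fewer cells of a given state cannot be told apart.

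Without untreated replicate 2, 1 of the 10 members rose and 0 fell, against 1.26% of 25592 tested IDs called higher and 2.2% called lower (edgeR adjusted p under 0.05). The gene that rose was Hyou1. At an unadjusted p under 0.05 there were 4 members higher (Hspa5, Calr, Pdia6 and Hyou1) and 1 lower (Herpud1), against 6.77% and 10.1% of all tested IDs. The members' median log2 fold change was then 0.08, against -0.04 for the tested IDs as a whole. Without IPA replicate 1 as well, Calr passed beside Hyou1, so that 2 members rose and 0 fell, against 2.88% of 24979 IDs higher and 3.05% lower; at an unadjusted p under 0.05 these numbers were 4 and 0, against 10.2% and 10.8%. In CPM over all 6 libraries, Hspa5, Calr and Hyou1 lay above the untreated libraries in every IPA library and 0 members lay below, against 15.7% and 6.38% of the tested IDs. After TMM scaling Hspa5 overlapped, and Herpud1 lay below the untreated libraries in every IPA library, which makes 2 members above and 1 below, against 9.49% and 10.8% of the tested IDs on that scale. With untreated replicate 2 set aside, Pdia6 and Dnajb9 joined those above in CPM and Herpud1 lay below, which makes 5 members above and 1 below, against 20.2% and 13.8% of the tested IDs. With the TMM factors of the fit of all 6 libraries applied to these libraries, Dnajb9 overlapped, and the other members just named kept their side. The share of all tested IDs was not computed for that case.

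**Figure D1:**
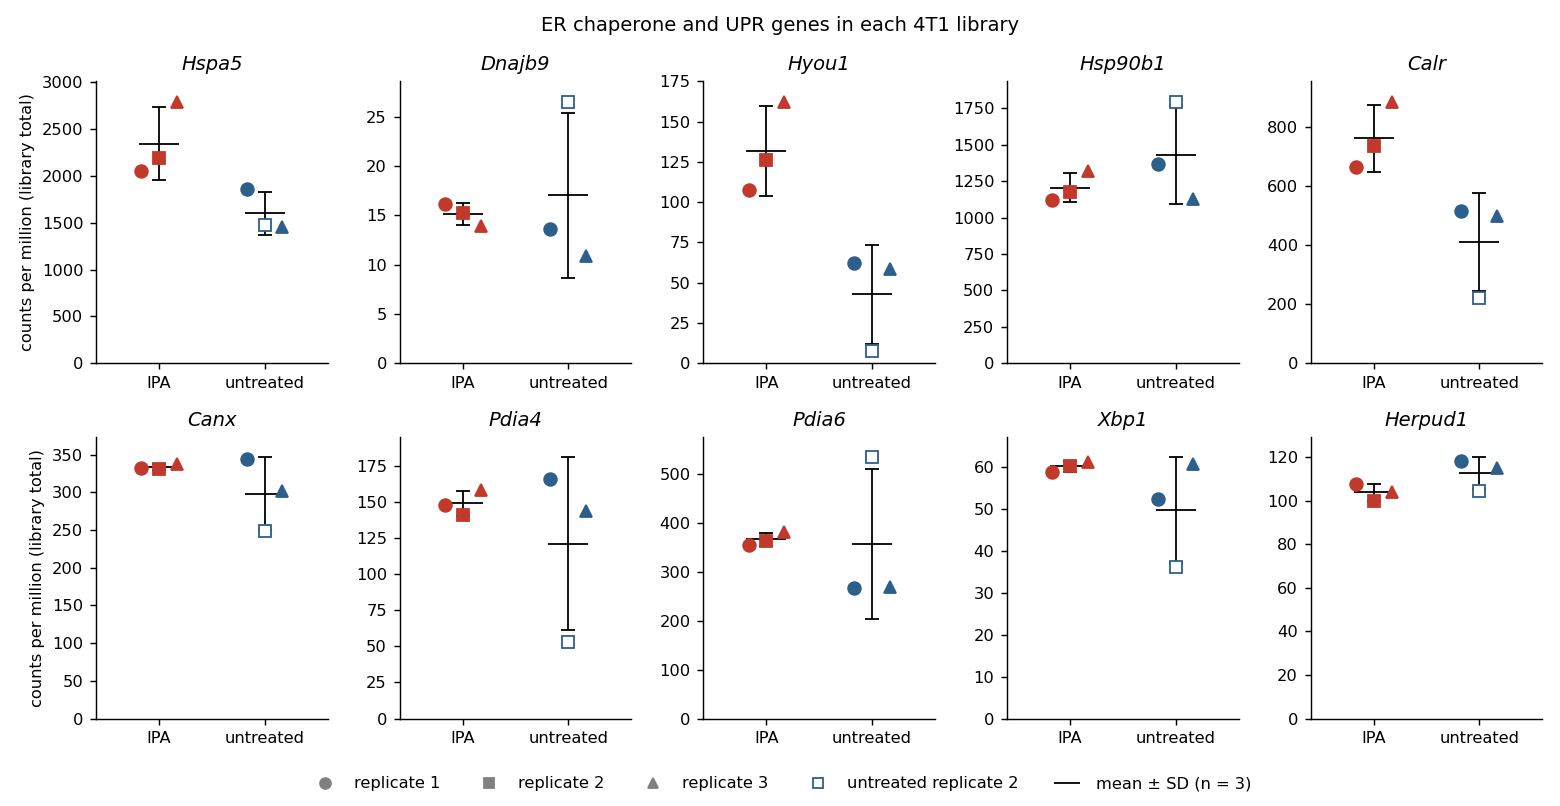
CPM of each gene in the 3 IPA and the 3 untreated libraries. Points are single libraries, shaped by replicate, the hollow square is untreated replicate 2, and bars show mean ± SD (n = 3). The IPA points lie above all untreated points for Hspa5, Hyou1 and Calr. The untreated spread is set by replicate 2 for Hyou1, Calr, Pdia4, Pdia6 and Dnajb9.

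The gene with the largest fitted change among the 10 was Hyou1 (ENSMUSG00000032115; GRCm38 chromosome 9, 44379490 to 44392369), which encodes the large Hsp70-related protein GRP170, a nucleotide exchange factor for BiP. Its level was 107, 126 and 162 CPM in IPA replicates 1, 2 and 3, against 62.0, 7.48 and 58.5 CPM in untreated replicates 1, 2 and 3. All IPA libraries were above all untreated libraries, and untreated replicate 2 was far below the other untreated libraries. The group means were 132 ± 27.9 CPM with IPA and 42.7 ± 30.5 CPM without it (SD, n = 3 each). Over all 6 libraries the log2 fold change was 1.52 ± 0.62 (SE), with a 95% interval from 0.05 to 2.99 and an edgeR adjusted p of 0.657. The wide interval goes with the spread of the untreated libraries, where untreated replicate 2 lay at 7.48 CPM. That value rests on 441 counts, with a 95% exact Poisson interval of 401 to 484 counts for counting error alone. Without that library Hyou1 rose by a log2 fold change of 1.04 ± 0.16 (95% interval 0.70 to 1.37; edgeR adjusted p = 0.00126), a fold of 2.05. It passed in each of the 6 settings that left out untreated replicate 2 and in 0 of the other 13, with adjusted p-values from 2.30e-06 to 0.998. Without untreated replicate 2, 97.3% of the tested IDs had a lower fold change than Hyou1.

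Hspa5 (ENSMUSG00000026864; chromosome 2, 34772090 to 34776529) encodes BiP, the ER Hsp70 and the protein that holds the UPR sensors inactive. It had 2051, 2194 and 2792 CPM in IPA replicates 1, 2 and 3, against 1865, 1477 and 1458 CPM in untreated replicates 1, 2 and 3. The IPA libraries were all higher, but IPA replicate 1 was closer to untreated replicate 1 than to IPA replicate 3. Hspa5 was among the most counted IDs of every library, at rank 15, 15 and 8 by count in IPA replicates 1, 2 and 3, against 23, 60 and 28 in untreated replicates 1, 2 and 3. The fitted log2 fold change was 0.32 ± 0.28 over all 6 libraries (edgeR adjusted p = 0.716) and 0.39 ± 0.17 without untreated replicate 2 (adjusted p = 0.248). Without that library the 95% interval, which is not adjusted for the number of IDs, ran from 0.03 to 0.75, with its upper end at a fold of 1.68. That end was at 1.81 with library totals and at 1.89 without IPA replicate 1 as well. The Hspa5 locus overlaps Rabepk in the RefSeq annotation. How strand and multiply mapped reads were counted is not given in the sources used here, so reads from the overlap of these genes cannot be assigned.

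Dnajb9 (ENSMUSG00000014905; chromosome 12, 44205897 to 44210068) encodes ERdj4, a J-domain partner of BiP and a target of spliced XBP1. It was the least counted member in 5 of the 6 libraries, with 16.1, 15.3 and 13.9 CPM in IPA replicates 1, 2 and 3, against 13.6, 26.5 and 10.9 CPM in untreated replicates 1, 2 and 3. The groups overlapped, and the highest value was that of untreated replicate 2. IPA replicate 1 had only 55 counts, which gives a 95% exact Poisson interval of 41.4 to 71.6 counts for counting error alone. Its fitted log2 fold change was -0.51 ± 0.47 over all 6 libraries (edgeR adjusted p = 0.723) and 0.18 ± 0.21 without untreated replicate 2 (adjusted p = 0.759), so its sign turned on that library.

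Hsp90b1 (ENSMUSG00000020048; chromosome 10, 86690841 to 86705444) encodes GRP94, the ER Hsp90, whose clients include integrins and Toll-like receptors. Its level was 1124, 1173 and 1319 CPM in IPA replicates 1, 2 and 3, against 1369, 1794 and 1128 CPM in untreated replicates 1, 2 and 3. The IPA libraries lay within or just under the range of untreated replicates 1 and 3, and untreated replicate 2 was highest. Over all 6 libraries the fitted log2 fold change was -0.53 ± 0.35 (edgeR adjusted p = 0.661). Without untreated replicate 2 it was -0.16 ± 0.15, with a 95% interval from -0.47 to 0.16 (adjusted p = 0.687).

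Of the lectin chaperones, which hold monoglucosylated glycoproteins in the folding cycle, the soluble one, calreticulin, lay higher in every IPA library than in any untreated library, while the membrane-bound one, calnexin, overlapped. Calr (ENSMUSG00000003814; chromosome 8, 84842088 to 84846931), encoding calreticulin, had 663, 734 and 883 CPM in IPA replicates 1, 2 and 3, against 515, 220.0 and 497 CPM in untreated replicates 1, 2 and 3. All IPA libraries were above all untreated libraries, also after TMM scaling. Calr had a fitted log2 fold change of 0.72 ± 0.29 over all 6 libraries (edgeR adjusted p = 0.657) and 0.48 ± 0.15 without untreated replicate 2 (adjusted p = 0.0807). Without IPA replicate 1 as well it was 0.62 ± 0.16 and passed (adjusted p = 0.0306), and over all alternatives its adjusted p ran from 0.0161 to 0.998.

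Canx (ENSMUSG00000020368; chromosome 11, 50293957 to 50325673), encoding the membrane chaperone calnexin, had 332, 330.4 and 337 CPM in IPA replicates 1, 2 and 3, against 345, 249 and 301 CPM in untreated replicates 1, 2 and 3. The IPA libraries differed from each other by little and lay between untreated replicates 1 and 3. Canx had a fitted log2 fold change of -0.06 ± 0.19 over all 6 libraries (edgeR adjusted p = 0.916) and -0.06 ± 0.13 without untreated replicate 2 (adjusted p = 0.885). The 95% interval of the second fit ran from -0.34 to 0.21, a fold of 0.791 to one of 1.16. Its upper end was at a fold of 1.24 with library totals and at 1.23 without IPA replicate 1 as well. Whether Calr and Canx differ in their response was not tested.

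**Figure D2:**
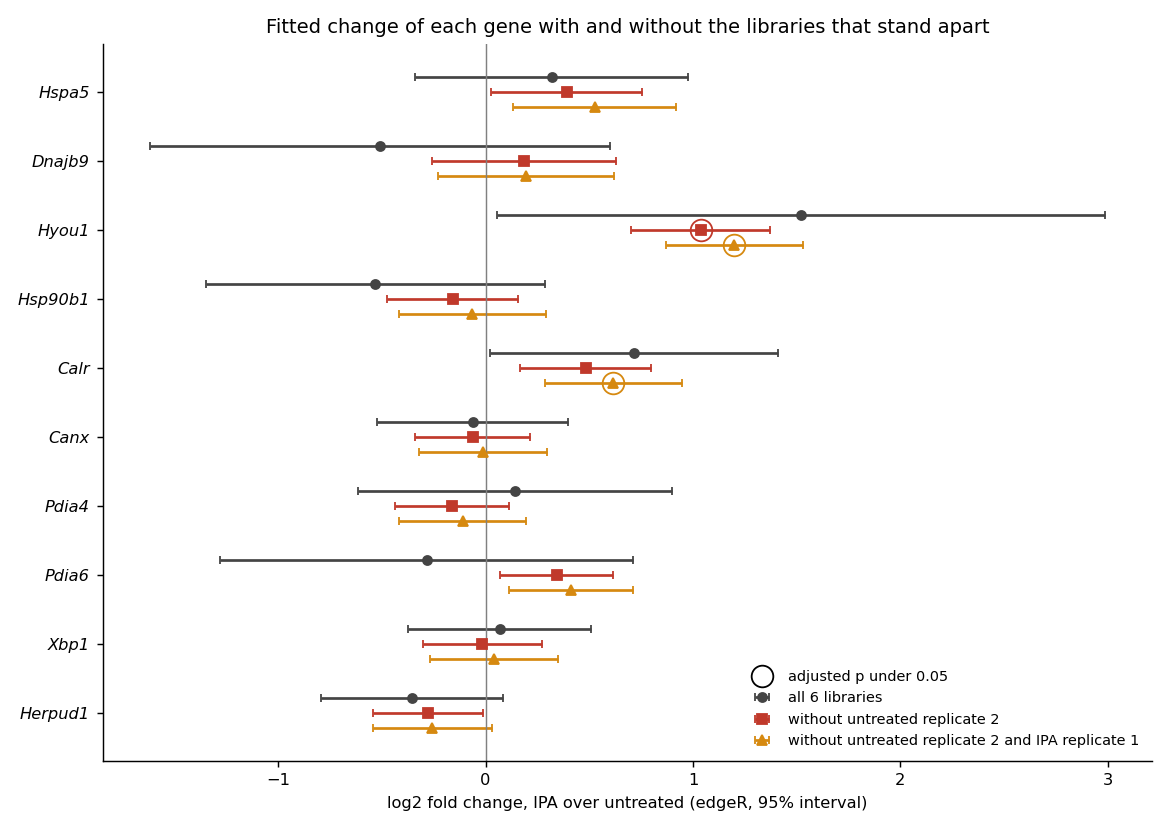
Fitted log2 fold change of each gene, IPA over untreated, with its 95% interval, over all 6 libraries, without untreated replicate 2, and without untreated replicate 2 and IPA replicate 1. Open rings mark an edgeR adjusted p under 0.05: Hyou1 at 1.04 and 1.20 and Calr at 0.62, all without untreated replicate 2.

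The disulfide isomerases Pdia4 and Pdia6, which form and rearrange disulfide bonds in folding proteins, had opposite signs over all 6 libraries with TMM scaling, and both signs turned without untreated replicate 2; with library totals over all 6 libraries both were above 0. Pdia4 (ENSMUSG00000025823; chromosome 6, 47796141 to 47813512), encoding ERp72, had 148, 141 and 158 CPM in IPA replicates 1, 2 and 3, against 166, 53.2 and 143 CPM in untreated replicates 1, 2 and 3. The groups overlapped, and untreated replicate 2 alone was low. The locus of Pdia4 overlaps that of Mir704 in RefSeq. Its log2 fold change was 0.14 ± 0.32 over all 6 libraries (edgeR adjusted p = 0.882) and -0.16 ± 0.13 without untreated replicate 2 (adjusted p = 0.617).

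Pdia6 (ENSMUSG00000020571; chromosome 12, 17266589 to 17284785), encoding the isomerase P5, had 355, 364 and 382 CPM in IPA replicates 1, 2 and 3, against 268, 534 and 270 CPM in untreated replicates 1, 2 and 3. The IPA libraries lay above untreated replicates 1 and 3 and below untreated replicate 2. Pdia6 had a fitted log2 fold change of -0.28 ± 0.42 over all 6 libraries (edgeR adjusted p = 0.826) and 0.34 ± 0.13 without untreated replicate 2 (adjusted p = 0.165). The locus of Pdia6 overlaps that of Atp6v1c2 in RefSeq, with the same limit on assigning reads as for Hspa5.

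Xbp1 (ENSMUSG00000020484; chromosome 11, 5520641 to 5525993), the transcription factor made active by IRE1, had 58.6, 60.2 and 61.2 CPM in IPA replicates 1, 2 and 3, against 52.2, 36.1 and 60.7 CPM in untreated replicates 1, 2 and 3. The groups overlapped through untreated replicate 3. Xbp1 had a fitted log2 fold change of 0.07 ± 0.19 over all 6 libraries (edgeR adjusted p = 0.902) and -0.02 ± 0.14 without untreated replicate 2, with a 95% interval from -0.30 to 0.27 (adjusted p = 0.979). Counts per gene do not separate the spliced from the unspliced mRNA, so they carry no value for IRE1 activity.

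Herpud1 (ENSMUSG00000031770; chromosome 8, 94386429 to 94395371) encodes HERP, an ER membrane protein of the ubiquitin ligase complex that sends misfolded proteins to the proteasome. It had 108, 99.8 and 104 CPM in IPA replicates 1, 2 and 3, against 118, 104 and 115 CPM in untreated replicates 1, 2 and 3. The IPA libraries were below untreated replicates 1 and 3 and overlapped untreated replicate 2 in CPM. Herpud1 had a fitted log2 fold change of -0.36 ± 0.19 over all 6 libraries (edgeR adjusted p = 0.657) and -0.28 ± 0.13 without untreated replicate 2 (adjusted p = 0.261). Herpud1 was thus on the other side of 0 from Hyou1, Calr and Hspa5 in both fits.

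For several members the untreated spread was set by replicate 2, in different directions. Among the untreated libraries, replicate 2 had the lowest CPM for 6 members and the highest for 3, and after TMM scaling the lowest for 4 and the highest for 5. Its Hyou1 level was 8.05-fold below the mean of untreated replicates 1 and 3 in CPM, and 5.94-fold below it after TMM scaling. Pdia4 was 2.15-fold and Calr 1.70-fold below that mean after TMM scaling. Dnajb9, Pdia6 and Hsp90b1 were 2.93-fold, 2.70-fold and 1.95-fold above it on the same scale. Such departures were common in that library: of the IDs at 5 CPM or more on average, 13113 in number, the median size of its log2 difference was 0.78, and 7.78% of these IDs departed by more than Hyou1. Between untreated replicates 1 and 3 the median size was 0.22, and that of Hyou1 was 0.09. What sets untreated replicate 2 apart was not tested.

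**Figure D3:**
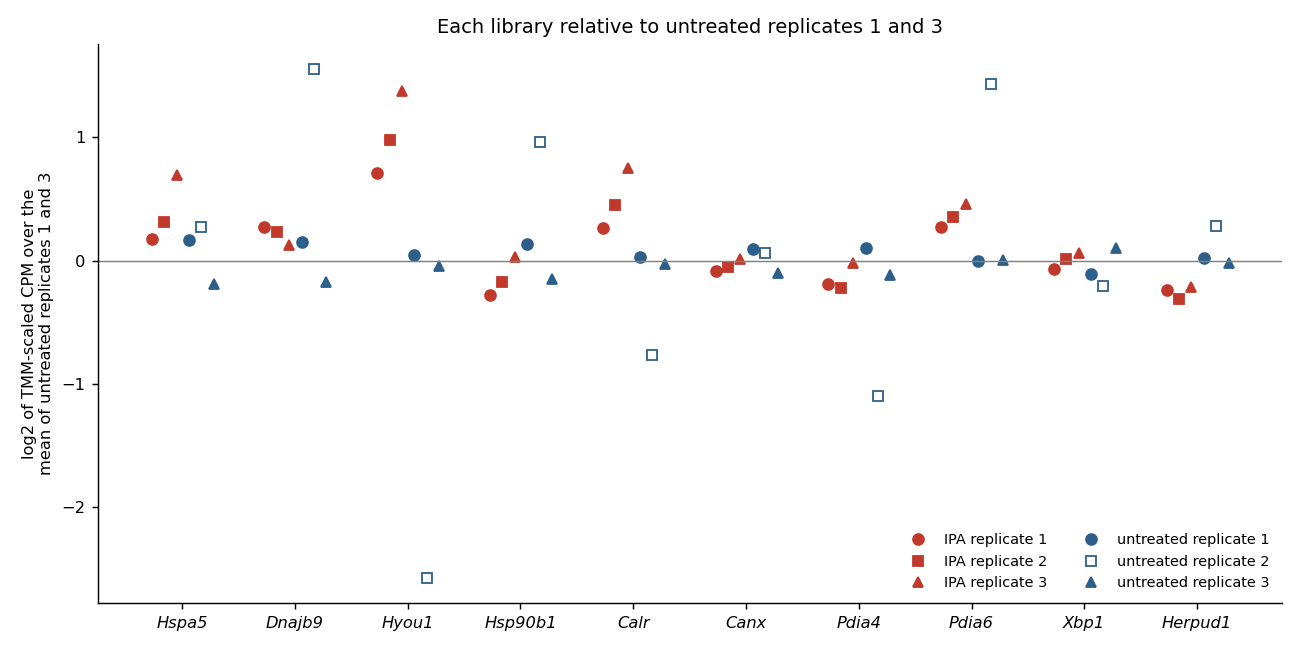
TMM-scaled CPM of each gene in each library, as log2 relative to the mean of untreated replicates 1 and 3. The hollow squares, untreated replicate 2, lie as low as -2.57 for Hyou1 and as high as 1.55 for Dnajb9, while the IPA libraries range from 0.71 to 1.38 for Hyou1.

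The IPA libraries also differed among themselves. IPA replicate 3 had the highest CPM of the 3 for 8 of the 10 members, and IPA replicate 1, the shallowest, for the other 2, Dnajb9 and Herpud1. After TMM scaling Herpud1 too was highest in IPA replicate 3, at 98.4 CPM, against 96.8 CPM in IPA replicate 1. The coefficient of variation across the IPA libraries was largest for Hyou1, at 21.2%, and Hspa5, at 16.8%, and smallest for Canx, at 1.09%. Of the 10 members, 9 varied more across the untreated libraries than across the IPA libraries, with Hspa5 as the exception, at 14.4% in untreated libraries. With the untreated libraries limited to replicates 1 and 3 the number was 6: Hspa5 was then among them, at 17.3% in untreated libraries, and Hyou1, at 4.11%, Calr, Herpud1 and Pdia6 were not. The counts in this paragraph were not computed over all tested IDs, so they do not show a trait particular to the members.

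Ratios of counts within a library do not depend on depth or on scaling. They were chosen after the values had been seen and are given as a description, and since counts grow with transcript length they are compared between libraries, not between genes. Hyou1 had 5.23, 5.75 and 5.81 counts per 100 Hspa5 counts in IPA replicates 1, 2 and 3, against 3.32, 0.507 and 4.01 in untreated replicates 1, 2 and 3. Every IPA library was above every untreated library, as was the case for 1.06% of all tested IDs. Hsp90b1 had 54.8, 53.5 and 47.2 counts per 100 Hspa5 counts in IPA replicates 1, 2 and 3, against 73.4, 122 and 77.4 in untreated replicates 1, 2 and 3. Herpud1 had 5.25, 4.55 and 3.72 in IPA replicates 1, 2 and 3, against 6.33, 7.08 and 7.89 in untreated replicates 1, 2 and 3. Hsp90b1, Herpud1 and Canx, taken per Hspa5 count, were below every untreated library in every IPA library, as were 19.2% of all tested IDs. Without untreated replicate 2, Hyou1 was again above, as were 1.58% of the tested IDs, and Pdia4 joined those below, as were 38.6%. Calr per 100 Hspa5 counts overlapped between the groups, with 32.3, 33.5 and 31.6 in IPA replicates 1, 2 and 3, against 27.6, 14.9 and 34.1 in untreated replicates 1, 2 and 3.

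**Figure D4:**
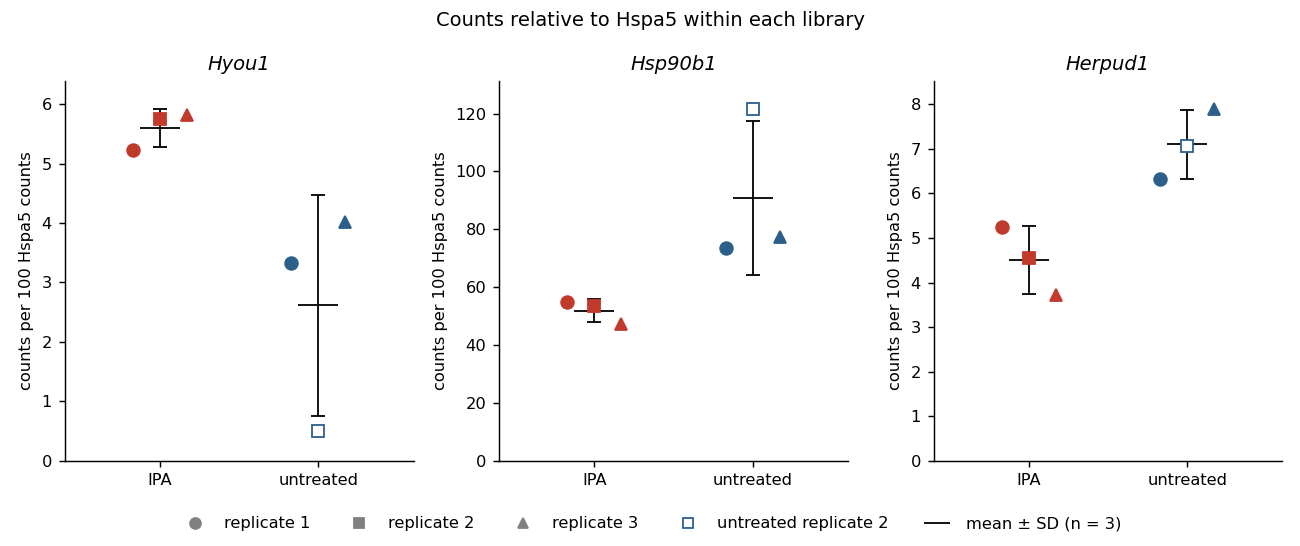
Counts of Hyou1, Hsp90b1 and Herpud1 per 100 Hspa5 counts in the 3 IPA and the 3 untreated libraries. Points are single libraries and bars show mean ± SD (n = 3). The IPA points lie above all untreated points for Hyou1 and below all of them for Hsp90b1 and Herpud1.

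Summed over the 10 genes, the share of all counts was 0.496%, 0.524% and 0.621% in IPA replicates 1, 2 and 3, against 0.477%, 0.450% and 0.404% in untreated replicates 1, 2 and 3. The means were 0.547 ± 0.0657% with IPA and 0.444 ± 0.0369% without it (SD, n = 3 each), a difference of 0.103 percentage points. It was 0.106 percentage points without untreated replicate 2. No p is given, since 3 samples against 3 cannot pass the threshold. With TMM-scaled library sizes the difference was 0.0184 percentage points, and untreated replicate 2, at 0.599%, was then above every IPA library. On that scale untreated replicate 1, at 0.469%, was also above IPA replicate 1, at 0.446%, so the groups overlapped without untreated replicate 2 as well. Hspa5 made up 41.3%, 41.9% and 44.9% of the members' counts in IPA replicates 1, 2 and 3, against 39.1%, 32.8% and 36.1% in untreated replicates 1, 2 and 3.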

How the data were processed

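Per the file headers, the authors deposited 1 table of counts, whole numbers of reads for each Ensembl ID in 6 libraries. Builds GRCm38 and mm10 are named in the submitters' processing notes. The aligner, the counter, the annotation release, and how strand and reads mapping to several places were treated are not given in the sources. Treated columns carry a shorter abbreviation than the sample titles and were matched by letters and number. Member IDs and symbols came with the rule, and the members, lists and tests were chosen with earlier results of these data known. Coordinates are those of the RefSeq table of GRCm38.p6, matched by symbol for 10 of 10 members. That table pairs 0 of its 49997 genes with an Ensembl ID and holds no sequences, so the lists of other ER genes, cell type markers and promoter motifs were not analysed here.

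All IDs were tested with the edgeR 4.0.16 quasi-likelihood F-test (robust) in R 4.3.3, with TMM scaling, the filterByExpr filter and Benjamini-Hochberg adjustment over all tested IDs, called at 0.05. The procedure was tested on simulated data. Those data held no library that stands apart. SEs are the absolute log2 fold change divided by the square root of F. Levels are CPM of library totals, and the comparison of untreated replicate 2 with all IDs used a pseudocount of 0.5 CPM. All 10 members were named. The level of 3 counts ranged from 0.0509 to 0.88 CPM across libraries. Such floors and intervals hold for counting error alone. Every pair of replicates differed by more than sampling noise, with a chi-square per degree of freedom of at least 6.74. No other ID had counts within 2% of a member's in every library. Alternatives were DESeq2 1.42.0, limma-voom 3.58.1, other factors and filters, a replicate block and left-out libraries.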

Additional observations from a re-analysis of the deposited data

How the results depend on the processing

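Of 19 alternatives, 13 kept untreated replicate 2 and none of these called a member. Over all 6 libraries, DESeq2 called 22 IDs higher and 63 lower, while edgeR called 1 higher with library totals and 1 higher without a filter. When single libraries were left out, higher IDs numbered 0 to 322, lower IDs 0 to 564 and higher members 0 to 1, the top of each range coming without untreated replicate 2. Without untreated replicate 2, DESeq2 called 634 of 34467 tested IDs higher and 660 lower. Of 25592 tested IDs, limma-voom called 660 higher and 1009 lower, library totals 691 and 327, and RLE factors 364 and 481. Without IPA replicate 1 as well there were 719 and 763 of 24979, which is 2.88% and 3.05%. Members called higher were then 2, 3, 2, 1 and 2 in that order: Hyou1 in each, Calr in all but RLE factors, and Pdia6 with limma-voom (log2 fold change 0.35, adjusted p = 0.0458). Hspa5, Hsp90b1, Calr, Herpud1 and Hyou1 kept their sign in 19 of 19 alternatives. The log2 fold change of Canx turned to 0.16 with library totals, to 0.0458 with library totals without untreated replicate 2, and to 0.0463 without untreated replicate 1. That of Pdia6 was 0.0365 with library totals. Without untreated replicate 2, signs turned for Pdia4 (-0.16 with edgeR; -0.14 with DESeq2, limma-voom and RLE factors; -0.0548 with library totals; -0.11 without IPA replicate 1 as well), Pdia6 (0.34; 0.37, 0.35 and 0.37; 0.45; 0.41), Dnajb9 (0.18; 0.21, 0.22 and 0.21; 0.29; 0.19) and Xbp1 (-0.0154 with edgeR and -0.0148 with limma-voom). With single libraries left out, log2 fold changes ran from -0.101 to 0.0463 for Canx, -0.16 to 0.43 for Pdia4, -0.49 to 0.34 for Pdia6, -0.0154 to 0.18 for Xbp1 and -0.78 to 0.18 for Dnajb9. Beyond the left-out library, the cause was not tested.

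With the replicate block, 0 IDs and 0 members were called in either direction. Samples of number 1, 2 and 3 had deviations from their group means that correlated at -0.0771, 0.0183 and 0.161, and 3 of 6 correlated best with their own number, so the numbers were not taken to pair samples. The difference in the members' summed share was positive in each of its alternatives, from 0.0661 without IPA replicate 3 to 0.129 percentage points without IPA replicate 1, and 0.0184 with TMM-scaled library sizes. Depth limits IPA replicate 1, where Dnajb9 had 55 counts.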
